A study of Danio rerio with 12 samples.

Results

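The hox genes are homeobox transcription factors that lie side by side in clusters. This account covers the 49 zebrafish hox genes of the 7 clusters (hoxaa, hoxab, hoxba, hoxbb, hoxca, hoxcb and hoxda) in adult skeletal muscle. They were chosen by name and not by a rule on their measured values, but with earlier results of these data known. A gene ID was found for 48 of the 49, out of 32520 genes in the count tables, and hoxa4a has no value here. The libraries came from trunk muscle and from extraocular muscle (EOM), which turns the eyeball. The fish were 20 months old and of strain AB. They were either desma-/-;desmb-/- double mutants, which carry mutations in both genes for desmin, or wild type (WT). Desmin is the intermediate filament protein that links myofibrils at the Z-disc. The groups were mutant EOM, WT EOM, mutant trunk and WT trunk, with 3 libraries each. Per the labels, WT and mutant fish descend from a common AB line. The series' design text calls desmin knocked down, and the genotype of the sample labels was used. The labels do not say whether libraries of a group came from separate fish or pools, so every p-value below measures the spread between these libraries, which may be technical.

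In vertebrate embryos hox genes are switched on in nested domains along the body axis. The genes at one end of a cluster, with low paralog group numbers, act in the hindbrain and pharyngeal arches, and those at the other end act in the posterior trunk and tail. Paralog groups collect the genes at the same place in different clusters. Trunk muscle forms from somites, which lie within the hox domains, whereas eye muscles form from head mesoderm in front of them. Many adult cell types keep the hox expression of the body level they came from, a property called positional memory. Hox proteins bind DNA together with TALE homeodomain cofactors of the Pbx, Meis and Pknox families. Polycomb proteins keep hox clusters silent and Trithorax/MLL proteins keep them active. Here paralog groups 1 to 3 are called anterior, 4 to 8 central and 9 to 13 posterior.

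Sense reads in genes totalled 46090609 to 74146170 per library. Levels are CPM, the reads of a gene per 1 M (mega) reads, on library sizes scaled by TMM over the 12 libraries, and 3 reads correspond to 0.0373 to 0.0456 CPM in an EOM library and to 0.057 to 0.0754 CPM in a trunk library. The mutated gene desma (ENSDARG00000058656.6) was at 26.1 to 42.6 CPM in mutant EOM and 573 to 685 CPM in WT EOM. In trunk it was at 17.7 to 49.3 CPM in mutants and 559 to 679 CPM in WT, so the genotype labels and desma levels did not conflict in any library. Its paralog desmb (ENSDARG00000005221.8) had only 82 reads over the 12 libraries and checks nothing at this level. The tissue labels were checked against head position genes listed as markers: summed over 6 genes, they reached 143 to 190.2 CPM in mutant EOM and 138 to 181 CPM in WT EOM, against 4.78 to 5.71 CPM in mutant trunk and 4.22 to 6.95 CPM in WT trunk. Most of that sum was alx4a, a homeobox gene, at 158 ± 25.2 CPM in mutant EOM and 150 ± 23 CPM in WT EOM, against 3.68 ± 0.62 CPM in mutant trunk and 3.72 ± 1.36 CPM in WT trunk (SD, n = 3 each). In bulk tissue, fewer cells of a type and less RNA per cell cannot be told apart.

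Hox transcripts were scarce in EOM and well covered by reads in trunk, in both genotypes. Summed over the 48 genes, the hox level was 1.12, 1.27 and 0.803 CPM in the 3 mutant EOM libraries and 1.2, 1.37 and 1.46 CPM in the 3 WT EOM libraries. In trunk it was 191, 208 and 182 CPM in mutants and 207, 205 and 190 CPM in WT. Every EOM library lay below every trunk library, and mutants and WT overlapped within each tissue. As reads, the 48 genes had 533 over the 6 EOM libraries and 53365 over the 6 trunk libraries. Of the 48 genes, 12 had no read in any of the 6 EOM libraries, while hoxb5b and hoxc13a were the only 2 with none in any of the 6 trunk libraries. At least 10 reads in every library were reached by 29 genes in trunk and by hoxb5a alone in EOM.

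**Figure D1:**
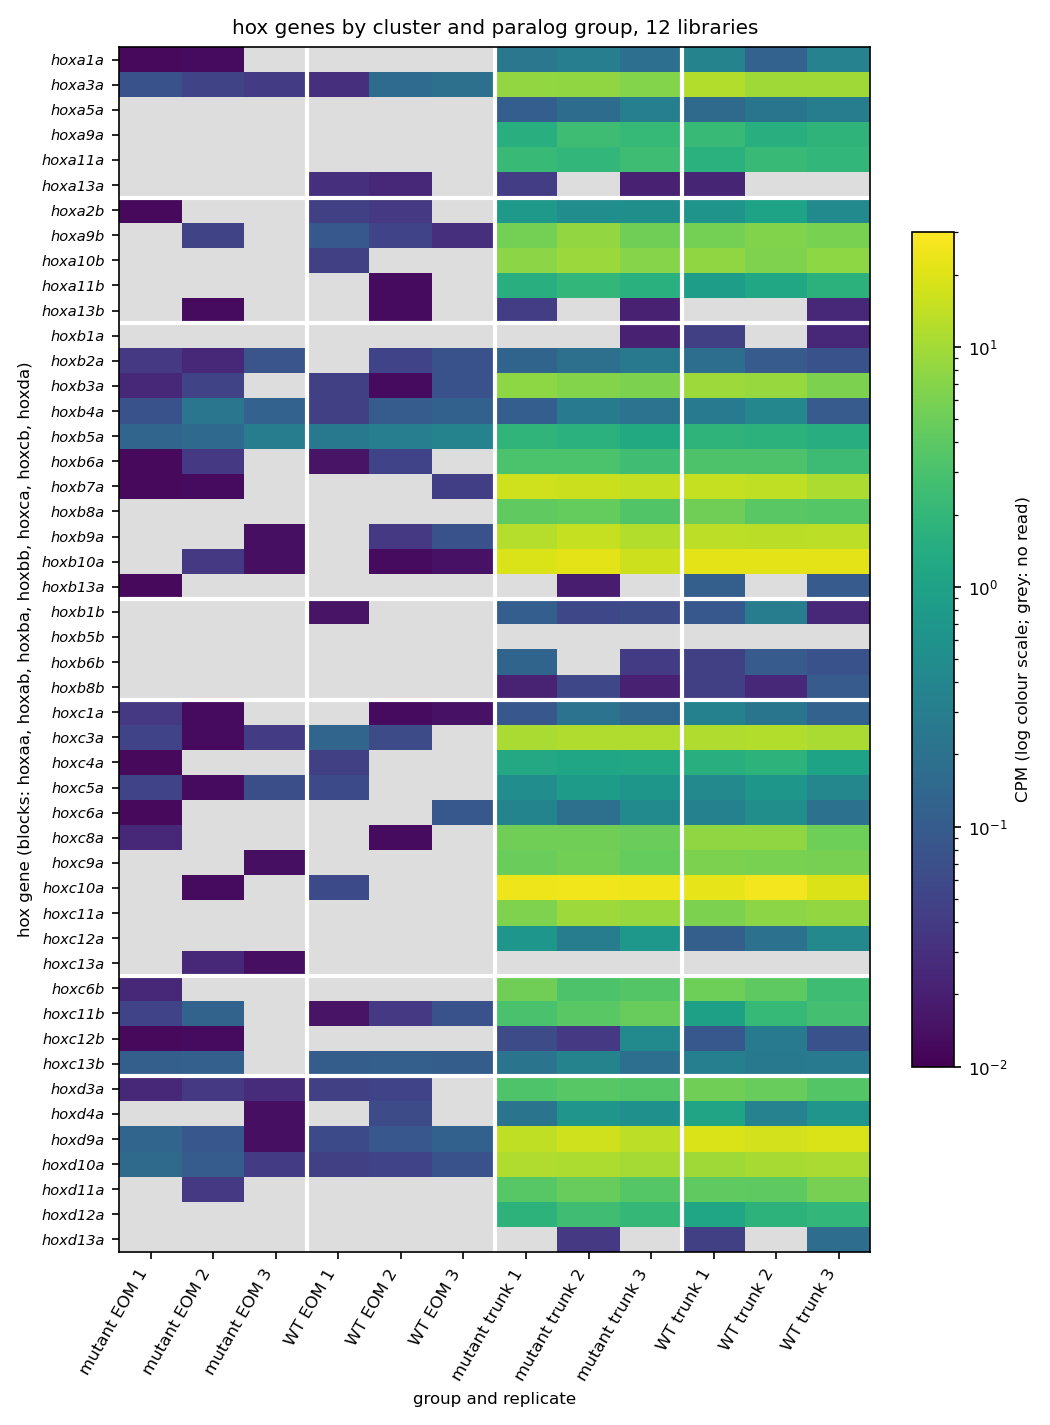
Level of each of the 48 hox genes (rows, grouped by cluster and ordered by paralog group) in each of the 12 libraries (columns, 3 per group), as CPM on a log colour scale, with grey for no read. Rows are to be read across, since levels of different genes are not scaled by gene length. The EOM columns are mostly grey or dark and the trunk columns mostly bright; hoxb5a stays visible in every EOM library.

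In the fit of EOM against trunk, 31 hox genes passed the filter on low counts in mutants and 29 in WT. Of these, 30 were called lower in EOM in mutants and 29 in WT at an adjusted p under 0.05 (edgeR's quasi-likelihood test, Benjamini-Hochberg over all genes tested), and none was called higher. The exception in mutants was hoxb4a. The background was a share of 25.7% of the 18698 genes tested in mutants and 23.2% of the 18430 tested in WT called lower in EOM, and 53.1% and 48.8% called in either direction. The same 29 genes were called lower in both genotypes, and the pair of comparisons shares no library. A hox gene passed the filter mostly through its trunk level, so the count over those that passed is no measure of the whole family. Without the filter, 37 of 47 genes with a read were called lower in mutants, where 17.7% of all genes were, and 39 of 46 in WT, where 16.0% of all genes were. Counted by level instead, all 3 EOM libraries lay below all 3 trunk libraries for 39 of 48 hox genes in mutants and for 40 of 48 in WT, against 22.5% and 21.8% of all genes with a read. For no hox gene did all EOM libraries lie above all trunk libraries.

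Fitted log2 fold changes of the hox genes tested ran from -11.99 to -0.44 in mutants, with a median of -8.27, and from -11.66 to -2.40 in WT, with a median of -7.62. Over all genes tested the median was 0.04 in mutants and 0.06 in WT. Fitted values of genes without a read in EOM depend on the prior count. With the 8 such genes of each genotype set to their lower bounds, the hox median was -7.44 in mutants and -7.41 in WT. A fitted value of -5 or lower was reached by 28 hox genes in mutants and by 25 in WT. Of all genes tested, 0.556% reached it in mutants and 0.57% in WT. The hox genes tested passed the filter mostly through their trunk level, which favours values far below 0. These counts and medians therefore describe the tested genes only and are no measure of the whole family. On unscaled library totals the median of all genes moved to 0.79 in mutants and 0.66 in WT, and the split of all calls in WT became 9006 higher and 1920 lower, against 4713 higher and 4278 lower with TMM. In mutants that split became 11343 higher and 1561 lower, against 5115 higher and 4805 lower. The hox counts were 30 in mutants and 29 in WT under both scalings.

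Pooled reads give a fold for each gene with an exact 95% interval. The interval covers counting error only and leaves out the spread between the 3 libraries of a group. Reads carried no molecular identifiers, so even the counting error may be understated. Where a gene had no read in EOM, 3 reads over the group gave a lower bound. In mutants 29 genes had a ratio, 12 a bound and 7 were at or under 3 reads in both tissues. In WT 28 had a ratio, 16 a bound and 4 were at or under the floor. Ratios or bounds reached at least 10 for 33 genes in mutants and 35 in WT, and at least 100 for 26 genes in mutants and 23 in WT. The same counts were not made over all genes. A bound uses 3 reads and a ratio the reads found, so a gene with 1 read in EOM can show a larger fold than a gene with none. The interval held 1 for hoxb4a in mutants and for hoxa13a in WT, which had only 4 reads in WT EOM and 1 in WT trunk.

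**Figure D2:**
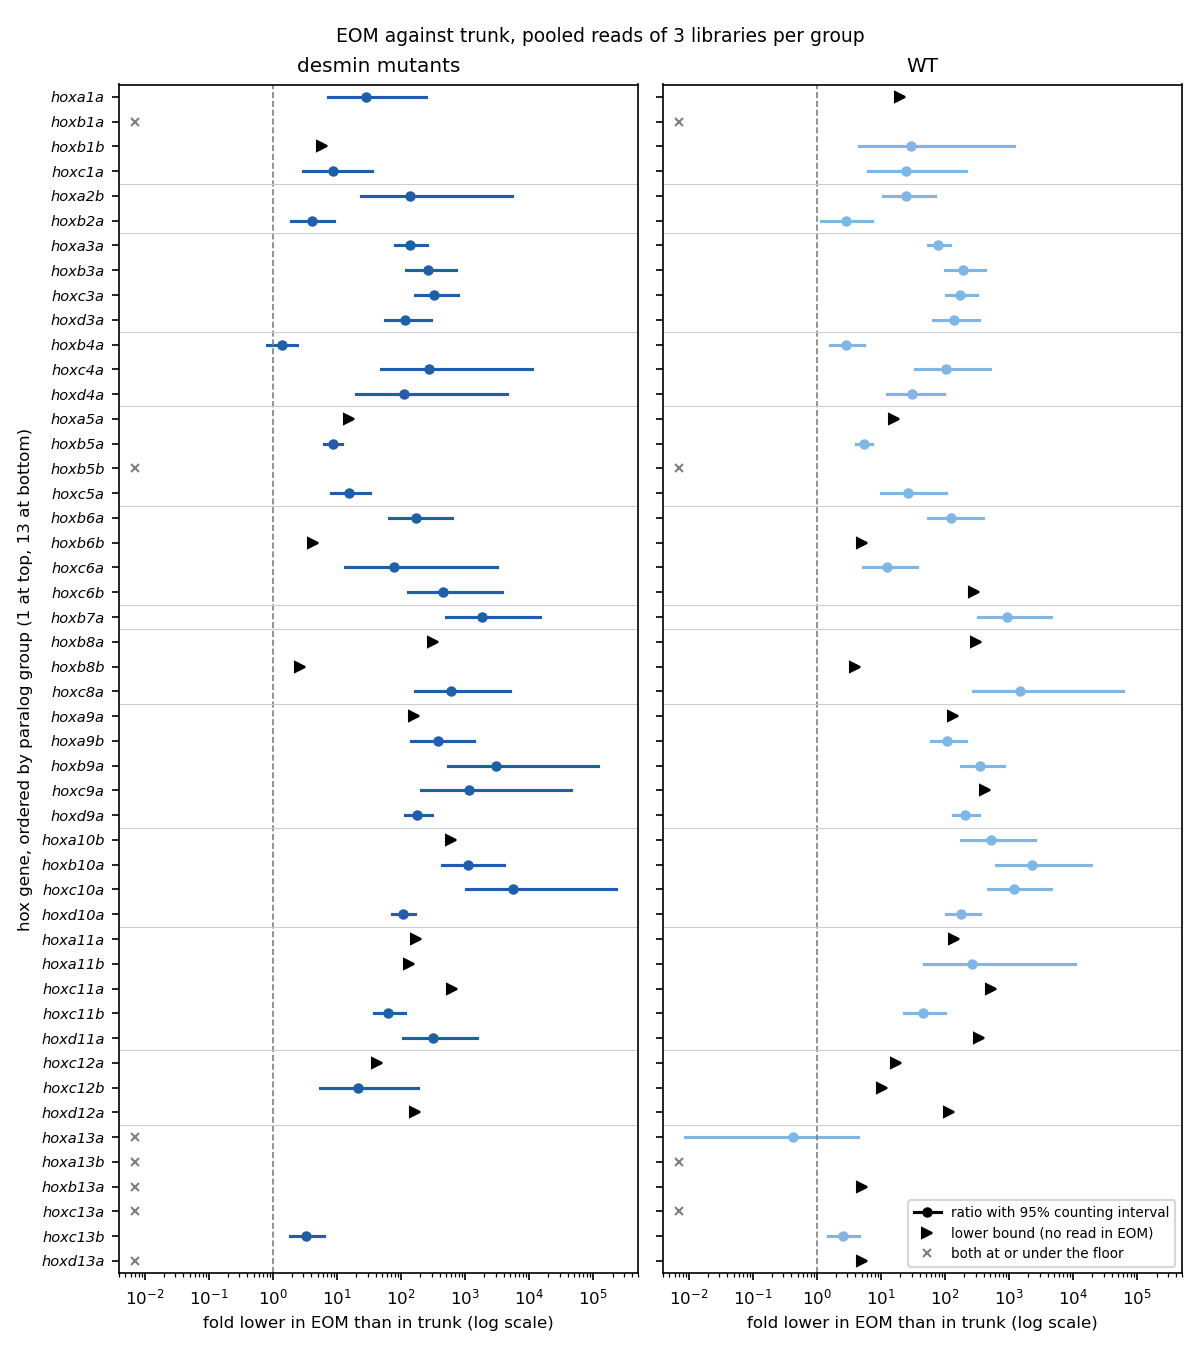
Fold by which each of the 48 hox genes was lower in EOM than in trunk (log axis), from reads pooled over the 3 libraries of a group, in mutants (left) and WT (right). Circles are ratios with exact 95% counting intervals, triangles are lower bounds for genes with no read in EOM, crosses mark genes at or under 3 reads in both tissues, and the dashed line is at 1; the genes of paralog groups 9 and 10 lie beyond 100 in both panels.

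The drop was seen in each of the 3 regions. Anterior genes summed to 0.224 ± 0.0433 CPM in mutant EOM and 0.357 ± 0.0376 CPM in WT EOM, against 30.7 ± 1.14 CPM in mutant trunk and 35.9 ± 4.42 CPM in WT trunk (SD, n = 3 each). Central genes summed to 0.435 ± 0.0697 CPM in mutant EOM and 0.524 ± 0.0937 CPM in WT EOM, against 36.6 ± 3.05 CPM in mutant trunk and 36.8 ± 6.94 CPM in WT trunk. Posterior genes summed to 0.407 ± 0.266 CPM in mutant EOM and 0.464 ± 0.0249 CPM in WT EOM, against 127 ± 11.4 CPM in mutant trunk and 128 ± 2.86 CPM in WT trunk. The make-up of the hox reads also differed between the tissues. Posterior genes held 43.3%, 49% and 13.8% of hox reads in mutant EOM and 38%, 32.4% and 33.7% in WT EOM, against 63%, 67.2% and 65.6% in mutant trunk and 60.2%, 63% and 68.3% in WT trunk. All 6 EOM shares lay below all 6 trunk shares. The EOM shares rest on as few as 58 reads in a library.

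**Figure D3:**
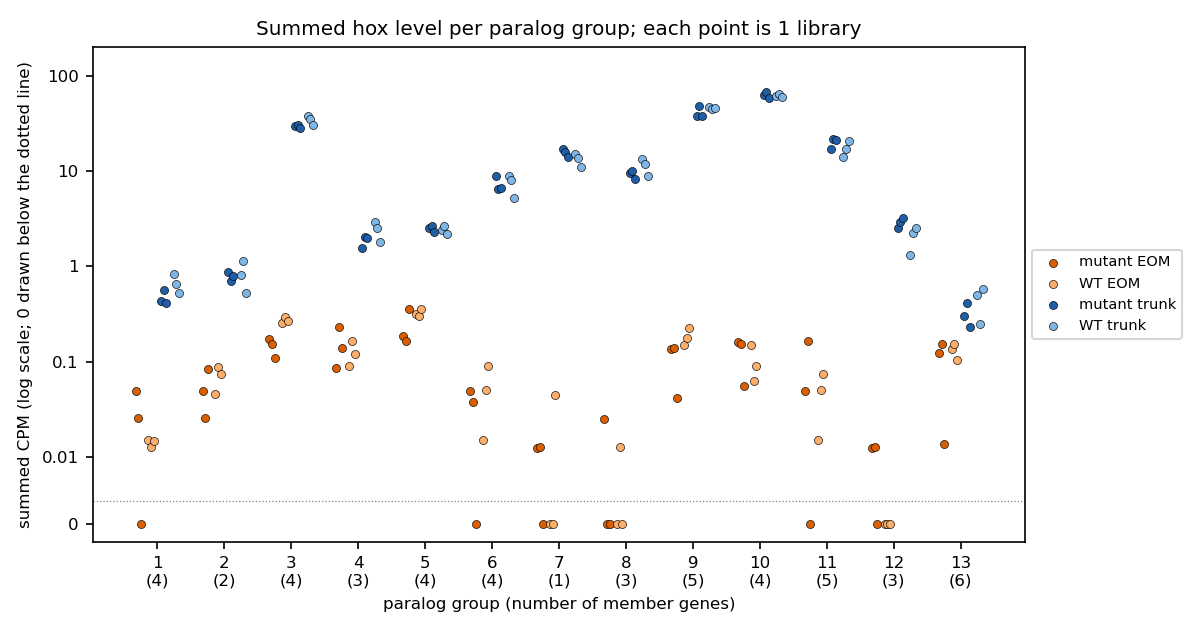
Summed CPM (log axis, with 0 drawn below the dotted line) of the hox genes of each paralog group in each library, with 3 points for each of the 4 groups. In all 13 groups the EOM points lie below the trunk points, and the gap is smallest in group 13, with 0.097 CPM in mutant EOM and 0.131 CPM in WT EOM, against 0.317 CPM in mutant trunk and 0.442 CPM in WT trunk on average.

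Among anterior genes, paralog group 3 held 8599 of the 8970 reads of the 6 trunk libraries. The gene hoxa3a (ENSDARG00000103862.2), of the group that patterns the posterior pharyngeal arches, had 0.0746, 0.051 and 0.0415 CPM in mutant EOM and 0.0304, 0.165 and 0.194 CPM in WT EOM. In trunk it had 8.10, 8.04 and 6.82 CPM in mutants and 12.02, 9.64 and 9.53 CPM in WT. The tissues did not overlap, and the fold was 136 (79.3 to 257) in mutants and 79.0 (54.4 to 119) in WT, with log2 fold changes of -7.03 ± 0.25 and adjusted p 4.86e-09 in mutants and -6.25 ± 0.41 and adjusted p 1.00e-05 in WT (edgeR, SE). The gene hoxa2b (ENSDARG00000023031.7), of a group that acts in the second pharyngeal arch, had 0.0124, 0 and 0 CPM in mutant EOM and 0.0456, 0.0381 and 0 CPM in WT EOM. Its trunk levels were 0.738, 0.513 and 0.544 CPM in mutants and 0.632, 1.03 and 0.453 CPM in WT, above every EOM library. With 1 read in mutant EOM the ratio was 137 (24.0 to 5480), and in WT it was 24.7 (10.9 to 69.3), with a log2 fold change of -4.49 ± 0.71 (adjusted p 9.77e-04, edgeR). Counted on either strand, its log2 fold change was -3.27 in mutants and -3.49 in WT, against -6.56 in mutants and -4.49 in WT on the sense strand.

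The group 1 genes, whose relatives act in the early hindbrain, were scarce in both tissues. The gene hoxb1b (ENSDARG00000054033.8), the one with the most reads of the 4 in the hoxbb cluster, had no read in mutant EOM and a single read in WT EOM. It had 5, 3 and 3 reads in mutant trunk and 4, 12 and 1 in WT trunk. The fold was at least 5.79 in mutants and 29.0 (4.55 to 1210) in WT, and the gene did not pass the filter in either comparison. The whole hoxbb cluster summed to 0 CPM in every mutant EOM library and to 0.00506 CPM on average in WT EOM, against 0.167 ± 0.0815 CPM in mutant trunk and 0.269 ± 0.137 CPM in WT trunk. Its gene hoxb5b had no read in any library.

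A pair of central genes of the hoxba cluster stood closer to their trunk level in EOM. So did the anterior gene hoxb2a of that cluster, with 11 reads in mutant EOM and 9 in WT EOM. Its fold was 4.02 (1.94 to 8.94) in mutants and 2.845 (1.17 to 7.37) in WT. The gene hoxb5a (ENSDARG00000013057.8), one of a pair of zebrafish copies of Hoxb5, had 0.137, 0.153 and 0.291 CPM in mutant EOM and 0.258, 0.305 and 0.358 CPM in WT EOM. In trunk it had 1.91, 1.67 and 1.30 CPM in mutants and 1.83, 1.71 and 1.48 CPM in WT, again with no overlap between tissues. Its fold was 8.54 (6.17 to 12.1) in mutants and 5.46 (4.12 to 7.33) in WT, with log2 fold changes of -3.06 ± 0.36 (adjusted p 3.66e-05) and -2.40 ± 0.29 (adjusted p 2.61e-04), the value nearest 0 among the 29 genes tested in WT. The neighbouring gene hoxb4a (ENSDARG00000013533.8), of the group at the boundary of hindbrain and spinal cord, had 0.0746, 0.229 and 0.125 CPM in mutant EOM and 0.0456, 0.102 and 0.119 CPM in WT EOM. Its trunk levels of 0.109, 0.266 and 0.209 CPM in mutants and 0.271, 0.402 and 0.101 CPM in WT overlapped those of EOM in both genotypes. The fold was 1.39 (0.812 to 2.36) in mutants, where edgeR gave a log2 fold change of -0.44 ± 0.57 (adjusted p 0.541). This was 0.32 (adjusted p 0.643) on unscaled library totals. In WT hoxb4a did not pass the filter, and its fold was 2.87 (1.58 to 5.37).

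Among the other central genes the size of the drop varied. The gene hoxc5a (ENSDARG00000070340.7) had 0.0497, 0.0127 and 0.0692 CPM in mutant EOM and 0.0607, 0 and 0 CPM in WT EOM. Its trunk levels were 0.499, 0.798 and 0.690 CPM in mutants and 0.429, 0.703 and 0.402 CPM in WT. The tissues did not overlap, with log2 fold changes of -3.86 ± 0.54 (adjusted p 1.32e-04) in mutants and -4.54 ± 0.89 (adjusted p 0.00303) in WT (edgeR). Its fold was 15.5 (8.06 to 33.3) in mutants, an interval that overlapped that of hoxb5a, and 26.9 (9.99 to 101.7) in WT. The drop was larger for hoxc6b and hoxb8a. The gene hoxc6b (ENSDARG00000101954.3), of a group expressed at the neck to thorax boundary in the mouse, had 2, 0 and 0 reads in mutant EOM and none in WT EOM. In trunk it was at 5.30, 3.21 and 3.54 CPM in mutants and 5.19, 4.14 and 2.49 CPM in WT, a fold of 459 (127 to 3800) in mutants and of at least 281 in WT. The gene hoxb8a (ENSDARG00000056027.7) had no read in any EOM library. It was at 4.23, 4.50 and 3.39 CPM in mutant trunk and 5.32, 3.87 and 3.60 CPM in WT trunk, so it was at least 312-fold lower in mutant EOM and at least 303-fold lower in WT EOM.

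Groups 9, 10 and 11 together held most hox reads of trunk, with 11754, 16866 and 5057 reads over its 6 libraries, against 64, 50 and 27 over the 6 EOM libraries. The EOM reads were spread unevenly, with 38 in hoxd9a, 36 in hoxd10a and 23 in hoxc11b. The gene hoxb10a (ENSDARG00000011579.8), which has no counterpart in mammals, had 0, 3 and 1 reads in mutant EOM and 0, 1 and 1 in WT EOM. In trunk it was at 18.9, 21.7 and 16.5 CPM in mutants and 21.7, 21.3 and 21.9 CPM in WT. The fold was 1100 (431 to 4060) in mutants and 2290 (632 to 18900) in WT, with adjusted p 2.71e-09 and 2.97e-07 (edgeR). The gene hoxc10a (ENSDARG00000070348.6), of the group that marks the lumbar level in the mouse, had 0, 1 and 0 reads in mutant EOM and 4, 0 and 0 in WT EOM. Its trunk levels were 24.6, 25.1 and 24.2 CPM in mutants and 22.6, 26.3 and 19.7 CPM in WT, a fold of 5690 (1020 to 225000) in mutants and 1210 (471 to 4440) in WT. Its level depends on the count column: over the 12 libraries hoxc10a had 6444 sense reads but 3340 in the column of either strand, 1.93 times fewer, and hoxa11a, hoxb3a and hoxc3a were likewise lower there by 1.29 to 1.4 times. On that column its log2 fold change of EOM over trunk was -10.98 in mutants and -9.08 in WT. The EOM libraries of hoxb10a and hoxc10a held at most 4 reads each. The gene hoxa10b (ENSDARG00000031337.5), also of group 10, had no read in mutant EOM and 3, 0 and 0 in WT EOM. It was at 7.49, 8.89 and 7.05 CPM in mutant trunk and 8.03, 6.43 and 7.59 CPM in WT trunk, at least 605-fold lower in mutant EOM and 520-fold (177 to 2530) lower in WT EOM.

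The gene hoxc11a (ENSDARG00000070351.5), of the group that patterns the sacral level in the mouse, had no read in any EOM library. In trunk it was at 6.38, 9.39 and 8.66 CPM in mutants and 6.18, 7.48 and 8.32 CPM in WT, so EOM was at least 632-fold lower in mutants and at least 514-fold lower in WT. The gene hoxc9a (ENSDARG00000092809.3), of a thoracic group in the mouse, had a single read in mutant EOM and none in WT EOM. Its trunk levels were 4.80, 5.53 and 4.50 CPM in mutants and 6.25, 5.93 and 5.88 CPM in WT, a fold of 1150 (205 to 45400) in mutants and at least 425 in WT. The gene hoxd11a (ENSDARG00000059267.6) had 0, 3 and 0 reads in mutant EOM and none in WT EOM. It was at 3.73, 4.68 and 3.60 CPM in mutant trunk and 4.29, 4.12 and 5.83 CPM in WT trunk, with a fold of 310 (105.7 to 1510) in mutants and of at least 333 in WT. The gene hoxd9a (ENSDARG00000059274.5), whose group acts in the pectoral fin, kept a low EOM level of 0.137, 0.0892 and 0.0138 CPM in mutants and 0.0607, 0.089 and 0.119 CPM in WT. Trunk held 13.9, 16.6 and 13.6 CPM in mutants and 19.4, 17.4 and 18.8 CPM in WT, so the fold was 180 (115 to 299) in mutants and 207 (132 to 344) in WT. Its neighbour hoxd10a (ENSDARG00000057859.6), named after its values were seen, had 13, 8 and 3 reads in mutant EOM and 3, 4 and 5 in WT EOM. It was at 11.7, 11.3 and 10.1 CPM in mutant trunk and 9.47, 10.4 and 10.9 CPM in WT trunk, with log2 fold changes of EOM over trunk of -6.70 ± 0.28 (adjusted p 1.36e-08) in mutants and -7.41 ± 0.26 (adjusted p 5.50e-07) in WT (edgeR, SE).

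Paralog group 13, which ends body axis growth and shapes the fin tip, was scarce in both tissues, as group 1 was. No gene of either group reached 10 reads in every trunk library. Group 1 summed to 0.474 CPM in mutant trunk and 0.672 CPM in WT trunk, and group 13 to 0.317 CPM in mutant trunk and 0.442 CPM in WT trunk. The 6 genes of group 13 together had 51 reads over the 6 EOM libraries. The gene hoxc13b (ENSDARG00000113877.1), whose mouse relative acts in hair and nails, had 0.112, 0.115 and 0 CPM in mutant EOM and 0.106, 0.114 and 0.104 CPM in WT EOM. Its trunk levels were 0.217, 0.361 and 0.188 CPM in mutants and 0.316, 0.251 and 0.277 CPM in WT, with no overlap between tissues. The fold was 3.33 (1.86 to 6.2) in mutants and 2.6 (1.49 to 4.6) in WT, and the gene was not called without the filter in either genotype. The genes hoxa13a, hoxa13b, hoxb13a, hoxc13a and hoxd13a had at most 7 reads in any library, and their EOM and trunk ranges overlapped in both genotypes.

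By cluster, the ratio of the mean trunk sum to the mean EOM sum was 427 in mutants and 347 in WT for hoxca, and 54.8 in mutants and 41.8 in WT for hoxcb. It was 651 in mutants and 142 in WT for hoxab, whose EOM sums rest on 29 reads over 6 libraries and were 0.0124, 0.0637 and 0 CPM in mutants and 0.182, 0.114 and 0.0298 CPM in WT. It was 193 in mutants and 99.4 in WT for hoxaa, 138 in mutants and 116 in WT for hoxba, and 157 in mutants and 202 in WT for hoxda. The hoxca genes summed to 0.134 ± 0.0551 CPM in mutant EOM and 0.166 ± 0.120 CPM in WT EOM, against 57.1 ± 2.34 CPM in mutant trunk and 57.6 ± 5.54 CPM in WT trunk (SD, n = 3 each). The hoxcb genes summed to 0.151 ± 0.134 CPM in mutant EOM and 0.151 ± 0.0288 CPM in WT EOM, against 8.29 ± 0.726 CPM in mutant trunk and 6.31 ± 0.620 CPM in WT trunk. In none of the 7 clusters did the sums of EOM and trunk libraries overlap.

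Genes next to the clusters were called in both directions. Of the 3 nearest protein-coding genes on each side of a cluster, 39 of 42 had an ID and 34 were tested in each genotype. In mutants 4 were called higher and 7 lower in EOM, with a median log2 fold change of -0.12, and in WT 7 were called higher and 7 lower, with a median of -0.14. Over all genes tested, 53.1% were called in either direction in mutants and 48.8% in WT. Their fitted values ran from -2.26 to 0.91 in mutants and from -2.76 to 3.25 in WT. The neighbours skap2 and cbx5 were higher in EOM in both genotypes, by 0.91 ± 0.19 and 0.59 ± 0.10 in mutants and by 1.2 ± 0.20 and 0.75 ± 0.14 in WT on the log2 scale (edgeR, SE). The genes agps and nfe2l1a were lower, with log2 fold changes of -1.98 and -2.26 in mutants and of -1.83 and -2.76 in WT.

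**Figure D4:**
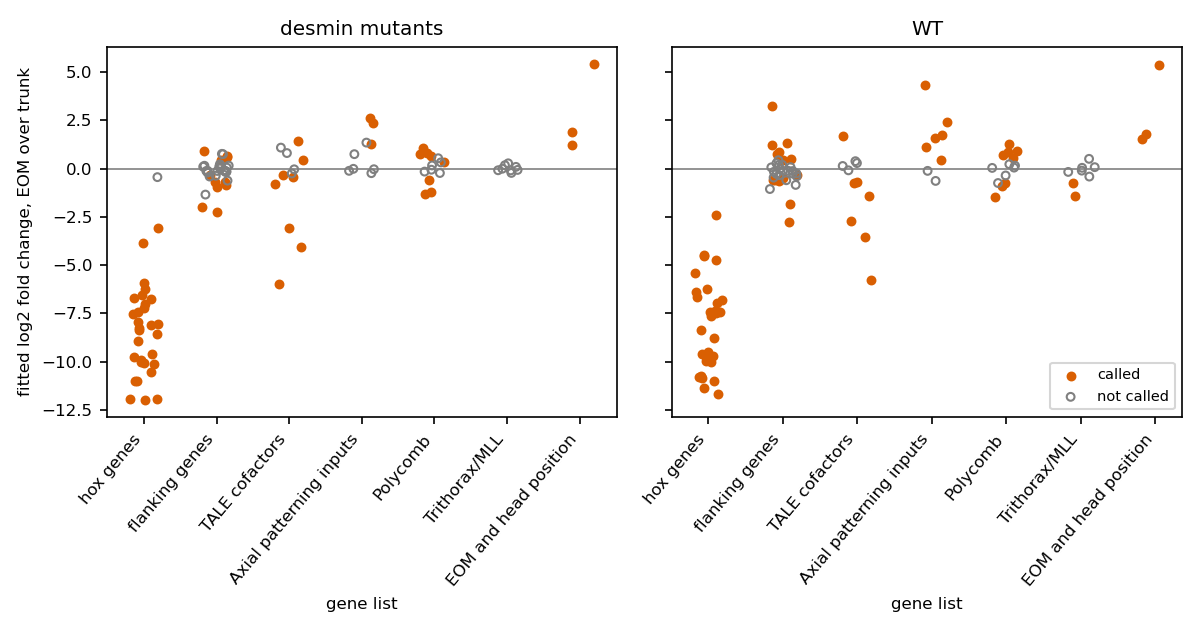
Fitted log2 fold change of EOM over trunk (y axis) for the tested genes of each list (x axis), in mutants (left) and WT (right). Filled points were called at an adjusted p under 0.05 and open points were not; 28 of the hox genes in mutants and 25 in WT lie at -5 or lower, while flanking, Polycomb and Trithorax genes lie on both sides of 0. Hox genes passed the filter mostly through their trunk level, so the points do not stand for the whole family. Jitter along the x axis carries no value.

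Among the hox cofactors, the Meis genes meis1a, meis1b and meis2a were lower in EOM along with the hox genes. The Meis genes meis3 and meis2b, with 240 and 42 reads over the 12 libraries, had mean levels in EOM above those in trunk. In EOM meis3 was at 0.354 CPM in mutants and 0.415 CPM in WT on average. In trunk it was at 0.202 CPM in mutants and 0.322 CPM in WT. Of the 14 TALE genes, 12 were tested in mutants, with 2 called higher and 6 lower in EOM, and 11 in WT, with 1 higher and 6 lower. The share of all genes called in either direction was 53.1% in mutants and 48.8% in WT. The gene meis1a had 0.256 ± 0.046 CPM in mutant EOM and 0.305 ± 0.0961 CPM in WT EOM, against 16.6 ± 1.71 CPM in mutant trunk and 17.4 ± 2.45 CPM in WT trunk. Its log2 fold change was -6.00 in mutants and -5.78 in WT, within the range of the hox genes. The values were -4.05 and -3.54 for meis2a and -3.10 and -2.74 for meis1b, while pbx3b was higher in EOM by 1.42 in mutants and 1.69 in WT. The Pbx genes pbx2 and pbx1a were lower in EOM by less, with values of -0.41 and -0.33 in mutants and -0.71 and -0.72 in WT.

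Among the regulators of hox clusters, only the Polycomb genes were called in both directions. Of 14 Polycomb genes tested, 5 were called higher and 3 lower in EOM in each genotype, next to the 53.1% of all genes called in either direction in mutants and 48.8% in WT, with log2 fold changes between -1.30 and 1.05 in mutants and between -1.49 and 1.27 in WT. The Polycomb genes bmi1a, bmi1b, cbx2 and cbx8a were among the higher ones and eed, jarid2a and suz12a were the lower ones in both genotypes. Of 8 Trithorax/MLL genes, none was called in mutants by edgeR, and in WT kmt2a and kmt2bb were lower in EOM, with log2 fold changes of -1.42 and -0.73. Of 16 axial patterning genes, 3 of 9 tested in mutants and 6 of 8 tested in WT were called higher in EOM and none lower, where 27.4% of all genes were called higher in mutants and 25.6% in WT. Those called in both genotypes, aldh1a2, aldh1a3 and cyp26c1, make or degrade retinoic acid, which sets hox borders in embryos. The retinoic acid receptors rarab and rarga were not called and had values of -0.23 and -0.11 in mutants and -0.64 and -0.12 in WT. A further receptor, raraa, was among the 6 called higher in EOM in WT and was not called in mutants. It was at 15.1 ± 1.21 CPM in mutant EOM and 16.5 ± 1.06 CPM in WT EOM. In trunk it was at 15.4 ± 0.698 CPM in mutants and 12.2 ± 2.55 CPM in WT. The retinoic acid producer aldh1a2 had 23.0 ± 1.48 CPM in mutant EOM and 21.0 ± 0.691 CPM in WT EOM, against 9.56 ± 0.835 CPM in mutant trunk and 9.84 ± 1.75 CPM in WT trunk. The degrading enzyme cyp26b1 had 21.6 ± 3.38 CPM in mutant EOM and 23.0 ± 5.62 CPM in WT EOM, against 12.9 ± 11.3 CPM in mutant trunk, where 1 library stood at 25.9 CPM, and 7.16 ± 1.2 CPM in WT trunk. The embryonic hox activators cdx1a and cdx4, with evx1, evx2, eve1 and gdf11, did not pass the filter. Their relative cdx1b had 133 reads over the 12 libraries. It was at 0.273 ± 0.229 CPM in mutant EOM and 0.0809 ± 0.062 CPM in WT EOM. In trunk cdx1b was at 0.286 ± 0.133 CPM in mutants and 0.0737 ± 0.0676 CPM in WT. It did not pass the filter for mutants against WT in either tissue.

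Cell type markers differed between the tissues as well. The counts below stand next to 53.1% of all genes tested called in either direction in mutants and 48.8% in WT. Of 6 skeletal muscle genes tested, 2 were called higher and 4 lower in EOM in each genotype. The higher ones were myhz2 and acta1b. In EOM myhz2 was at 4320 CPM in mutants and 3770 CPM in WT, against 81.3 and 62.3 CPM in trunk. In EOM acta1b was at 4040 CPM in mutants and 6240 CPM in WT, against 579 and 586 CPM in trunk. Summed over the matched markers of each list, skeletal muscle genes (6 matched) were at 34900 to 40300 CPM in mutant EOM and 40300 to 48200 CPM in WT EOM, against 137000 to 177000 CPM in mutant trunk and 127000 to 158000 CPM in WT trunk. Fibroblast genes (9 matched) were at 944 to 1170 CPM in mutant EOM and 767 to 833 CPM in WT EOM, against 408 to 477 CPM in mutant trunk and 231 to 339 CPM in WT trunk. Endothelial genes (4 matched) were at 110 to 125 CPM in mutant EOM and 134 to 165 CPM in WT EOM, against 242 to 270 CPM in mutant trunk and 304 to 315 CPM in WT trunk. Neuron genes, a class in which hox genes are widely used, were at 8.64 to 23.4 CPM over the 6 EOM libraries and 12.7 to 25.9 CPM over the 6 trunk libraries. Single neuron genes went both ways, with 2 called higher and 2 lower in EOM of 8 tested in mutants. In WT 3 were called higher and 2 lower of 9 tested. Mutant trunk replicate 3 stood apart for snap25a, at 9.04 CPM against 3.04 and 1.29 CPM in replicates 1 and 2. Photoreceptor genes were at 31.6 to 196 CPM over the EOM libraries and at 0.174 to 0.513 CPM in mutant trunk and 0.88 to 25.2 CPM in WT trunk, where 1 library held the high value. Of 6 muscle stem cell genes tested, 2 were called higher and 3 lower in EOM in mutants, and 1 higher and 2 lower in WT. The genes pax3b and pax7a were lower, with log2 fold changes of -6.02 and -3.39 in mutants and -4.68 and -4.22 in WT. These rest on few EOM reads, with pax3b at 0.0124, 0 and 0 CPM in mutant EOM. The gene myod1 was higher in EOM by 1.15 in mutants and 1.11 in WT. The paralog pax7b was at 1.24 CPM in mutant EOM and 1.09 CPM in WT EOM. In trunk pax7b was at 1.29 CPM in mutants and 0.973 CPM in WT. No marker of these lists was at 0 in all 12 libraries, and the part of these differences in the hox values was not tested.

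Between desmin mutants and WT, no hox gene was called in either tissue. In EOM only hoxb5a passed the filter, with a log2 fold change of -0.66 ± 0.43 (adjusted p 0.469, edgeR), where 3.56% of all genes tested were called. Neither edgeR nor DESeq2, which tested 6 hox genes, gave an unadjusted p under 0.05 for any of them. Over all genes, edgeR gave such a p for 3515 of the 18980 tested. Without the filter, edgeR called none of 36 hox genes. For no hox gene were the mutant and WT ranges apart in EOM. Of all genes with a read, 9.93% lay lower and 10.8% higher in mutants. Of the 48 hox genes, 12 had no read in EOM and only hoxb5a reached 10 reads in every EOM library. Ranges that both hold 0 cannot lie apart, so this count says little about a mutant effect on hox genes in EOM. Of 24 sums in EOM, over all members, clusters, regions and paralog groups, 21 overlapped between the genotypes and 3 lay lower in every mutant library. Anterior genes summed to 0.273, 0.204 and 0.194 CPM in mutant EOM and 0.319, 0.394 and 0.358 CPM in WT EOM. Group 3, which is part of that sum, was at 0.174, 0.153 and 0.111 CPM in mutant EOM and 0.258, 0.292 and 0.269 CPM in WT EOM, and group 9 at 0.137, 0.140 and 0.0415 CPM in mutant EOM and 0.152, 0.178 and 0.224 CPM in WT EOM. These sums rest on 92 reads for group 3 and 64 for group 9 over the 6 EOM libraries, were picked after their values were seen, and were not tested.

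In trunk, 34 hox genes were tested and edgeR called none, against 8.4% of all genes tested. An unadjusted p under 0.05 was found for 4, namely hoxa3a, hoxc11b, hoxd9a and hoxc8a, and the lowest adjusted p was 0.116. Over all genes, edgeR gave an unadjusted p under 0.05 for 4304 of the 17342 tested. Fitted log2 fold changes of mutant over WT ran from -0.53 for hoxd4a to 1.19 for hoxc12a, with a median of -0.02, next to -0.01 for all genes. Of the 34 values, 31 lay between -0.5 and 0.5, with a median standard error of 0.2. DESeq2 called 1 of 39 hox genes, hoxc11b, with an adjusted p of 0.0499.

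The gene hoxc11b (ENSDARG00000102631.3), one of a pair of zebrafish copies of Hoxc11, had 2.97, 3.86 and 4.66 CPM in mutant trunk and 0.947, 2.11 and 2.77 CPM in WT trunk. It was named after its values were seen. All mutant libraries lay above all WT libraries, with a log2 fold change of 1.00 ± 0.35 and an adjusted p of 0.116 (edgeR). Without WT replicate 3 it was 1.37 with an adjusted p of 0.0292, and hoxc8a was then also called, at -0.60 with an adjusted p of 0.0246. It was the only hox gene with all mutant libraries higher, while hoxa3a, hoxc9a and hoxd9a had all mutant libraries lower. In all genes with a read, 11.6% had all mutant libraries higher and 12.3% lower. The hoxa3a and hoxd9a values of trunk given above had log2 fold changes of -0.42 ± 0.15 (adjusted p 0.116) and -0.32 ± 0.13 (adjusted p 0.174). The gene hoxc12a, also named after its values were seen, had 0.673, 0.285 and 0.711 CPM in mutant trunk and 0.113, 0.201 and 0.427 CPM in WT trunk, and these overlapped (log2 fold change 1.19 ± 0.56, adjusted p 0.217).

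**Figure D5:**
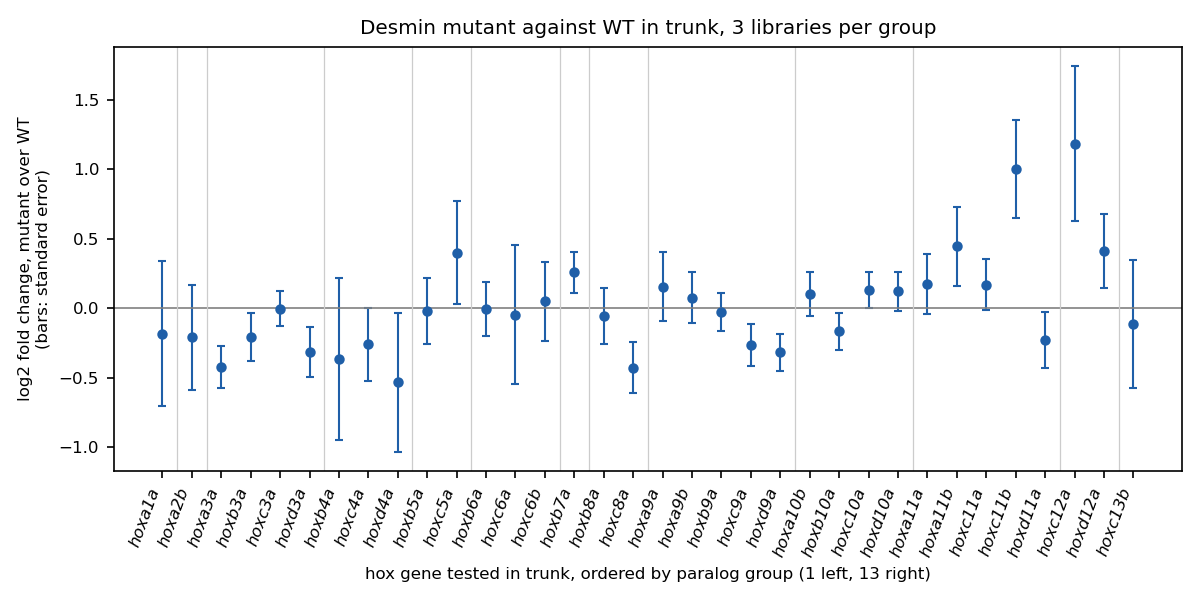
Log2 fold change of desmin mutant over WT in trunk (y axis, bars are standard errors from edgeR) for the 34 hox genes tested, ordered by paralog group from 1 (left) to 13 (right). The 6 anterior genes all have values at or below 0, and hoxc11b and hoxc12a stand highest; none passed the adjusted p threshold.

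Described by region, the 6 anterior genes tested in trunk had values from -0.42 to -0.0023 with a median of -0.21. The 11 central genes had a median of -0.05, with 3 above 0, and the 17 posterior genes a median of 0.12, with 11 above 0. Over the 34 genes the Spearman correlation of paralog group number with the fitted value was 0.554 and the Pearson correlation 0.518. The genes share the same 6 libraries, and leaving out 1 library at a time gave Spearman values from 0.384 without WT replicate 2 to 0.648 without WT replicate 3. By cluster, hoxaa summed to 12.2, 12.98 and 11.9 CPM in mutant trunk and 16.5, 13.8 and 14.0 CPM in WT trunk, which did not overlap. The hoxcb genes summed to 8.55, 7.47 and 8.85 CPM in mutant trunk and 6.54, 6.78 and 5.61 CPM in WT trunk, again with no overlap and in the other direction. The hoxaa sum includes hoxa3a, at 7.65 CPM in mutant trunk and 10.4 CPM in WT trunk on average. The hoxcb sum includes hoxc11b, at 3.83 and 1.94 CPM, and hoxc6b, at 4.015 and 3.94 CPM, in the same order. The sums of hoxab, hoxba, hoxbb and hoxca overlapped, and that of hoxda was 34.6, 39.6 and 33.5 CPM in mutants and 40.6, 38.7 and 41.9 CPM in WT, which also overlapped. Of the sums by region and paralog group, that of group 12 alone did not overlap, at 2.52, 2.93 and 3.22 CPM in mutant trunk and 1.33, 2.23 and 2.51 CPM in WT trunk. Of all 24 trunk sums, 2 lay higher and 1 lower in every mutant library. Of all genes with a read, 11.6% lay higher and 12.3% lower, and the sums were not tested. Across 46 genes with a trunk read, mean levels in mutants and WT had a Spearman correlation of 0.988.

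No difference of the mutant effect between EOM and trunk was called for any of 34 hox genes tested. Fitted values ran from -3.04 to 3.08, with a median standard error of 1.18 and a highest of 2630. Most of these genes had few or no reads in EOM, so this test could miss large differences. An unadjusted p under 0.05 was found for 1 by edgeR and 2 by DESeq2, and none was called by either. Over all genes, edgeR gave such a p for 1930 of the 19687 tested and called 0.0914%. No TALE, axial patterning or Polycomb gene was called between mutants and WT in either tissue by edgeR. Of the Trithorax/MLL genes kmt2a was lower in mutant trunk, at 25.0 CPM against 42.4 CPM in WT trunk (-0.74 on the log2 scale with an adjusted p of 0.0297), and of the flanking genes skap1 was higher in mutant EOM, at 0.324 CPM against 0.0622 CPM in WT EOM (2.36, adjusted p 0.031). Leukocyte markers (5 matched) summed to 107.2 to 115 CPM in mutant EOM and 66.1 to 75.3 CPM in WT EOM, and to 71.4 to 82.6 CPM in mutant trunk and 38.1 to 39.5 CPM in WT trunk. Their part in the trunk values above was not tested.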

How the data were processed

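RNA was extracted from dissected muscle and sequenced as stranded, poly-A selected libraries, per the labels' protocols. The authors deposited whole-number read counts per gene, 1 table per library. The submitters' processing notes name STAR, DESeq2 and the build GRCz11, without versions. Each table holds a count of either strand and of each strand apart. The strand column that held most gene reads was used as the sense count, and the other held 2.77% to 3.21%. The 4 tallies of reads assigned to no gene entered neither library sizes nor tests. Unmapped reads were 7.93% to 14.3% of a library's total, multimapping reads 9.96% to 11.4%, those outside genes 5.93% to 9.57%, and those the authors' counting found ambiguous 1.34% to 1.59%. Multimapping and ambiguous reads can lower the counts of near-identical copies and of overlapping genes. In RefSeq's gene table of assembly GRCz12tu, 5 listed genes (hoxa3a, hoxb1b, hoxb3a, hoxc3a and hoxd3a) span 13 others, hoxb4a and hoxb5a among them.

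Of the 48 gene IDs, 15 had the zebrafish symbol in the symbol table. The other 33 had a human-style symbol, 10 of them 1 shared by a pair of IDs, and their copy letter was taken from neighbouring genes in the RefSeq table, as it was for desma and desmb. Gene positions of the RefSeq table were used for this step, for the flanking genes and for the gene spans above. No sequences were used.

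Tests used edgeR 4.0.16 under R 4.3.3 (TMM, filterByExpr, robust quasi-likelihood fit, two-sided), on the groups compared and on all genes. There were 5 comparisons, and the difference of mutant effects used all 12 libraries. Calls are at a Benjamini-Hochberg adjusted p under 0.05. The procedure was tested on simulated data. Alternatives were DESeq2 1.42.0, unscaled library totals, no filter, a filter at 50 reads on average, counts of either strand, a replicate block, a fit of all 12 libraries and leaving out each library.

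The hox genes, the other lists and the tests were chosen with earlier results of these data known. Genes named with values in every library were each cluster's highest by mean CPM, the 5 highest in EOM, and the 5 largest and 3 smallest called changes of EOM against trunk in WT. No hox gene was called between genotypes or higher in EOM, which would also have been named. The genes hoxb2a, hoxc8a, hoxd4a, hoxd10a, hoxc11b and hoxc12a, and the genes named from other lists, were picked after their values were seen. A further gene of the head position list is not reported here.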

Additional observations from a re-analysis of the deposited data

Results flagged for a closer look

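The counts of the strand opposite to the annotated gene were not used in the main comparisons. They entered only the alternative on counts of either strand. They held 461 reads for the 48 hox genes in EOM, next to 533 sense reads, and 1272 in trunk, next to 53365 sense reads. For 7 genes in EOM and 2 in trunk, opposite-strand reads outnumbered sense reads and were above 3. Without an annotation of antisense transcripts, the source of these reads was not tested.

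In EOM, hoxb9a had 154 opposite-strand reads and 9 sense reads. They came as 39, 21 and 9 in mutant EOM and 7, 54 and 24 in WT EOM, next to 29, 22 and 15 in mutant trunk and 19, 15 and 19 in WT trunk. All 12 libraries therefore held some, and the tissues overlapped, unlike the sense counts. The 91 opposite-strand reads of hoxb10a in EOM were all in WT replicate 2. Of the 83 of hoxb3a in EOM, 70 were in mutant replicate 1, and 50 of its trunk reads were in mutant replicate 2. The other genes in EOM were hoxa2b with 27 such reads, hoxc12b with 11, hoxa11b with 8 and hoxc6b with 4.

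In trunk, hoxa13a had 71 opposite-strand reads and 4 sense reads. They came as 10, 17 and 10 in mutant trunk and 8, 15 and 11 in WT trunk, and none was found in any EOM library. Likewise hoxd13a had 30 in trunk, as 8, 7 and 6 in mutants and 4, 0 and 5 in WT, next to 11 sense reads, and none in EOM.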

How the results depend on the processing

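Hox counts for mutant against WT in EOM, and for the difference of effects, were 0 under every alternative run. In trunk, 0 calls became 1 with DESeq2 and 1 with the replicate block, each time hoxc11b (log2 fold change 0.99 with an adjusted p of 0.0499, and 1.08 with 0.0329). Leaving out 1 trunk library at a time gave 0 to 2 calls, the 2 without WT replicate 3 (hoxc11b at 1.37 and hoxc8a at -0.60). For EOM against trunk, the count of 29 in WT was 19 of 19 tested with at least 50 reads on average and 29 to 39 otherwise, with 39 reached without the filter. That of 30 in mutants ran from 23 to 37. The filter at 50 reads left no hox gene for mutant against WT in EOM.

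Changes of direction in single genes included the 3 cases given here. Trunk values of mutant over WT close to 0, such as -0.00225 for hoxc3a and -0.00235 for hoxb6a, carry no firm direction. In mutants, hoxb4a of EOM over trunk was 0.32 on unscaled library totals. In trunk, the fitted value of hoxc6b was -0.19 without WT replicate 3 and -0.21 without mutant replicate 1, within a range of -0.21 to 0.29 over the libraries left out, against 0.05 with all libraries. The cause was not tested. Whether replicate numbers pair the libraries was not settled. Correlations of same-numbered deviations ran from -0.19 to 0.32 over the pairs of groups, the highest between WT EOM 1 and WT trunk 1. Such values cannot exclude a pairing. Apart from the call of hoxc11b in trunk, the replicate block changed no hox count.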
